A study of Mus musculus with 101 samples.

Results

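The genes described here are 10 secreted members and binders of the activin and TGF-beta family in mouse fat. They comprise 8 ligand genes (Inhba, Inhbb, Gdf3, Gdf11, Mstn, Tgfb1, Tgfb2 and Tgfb3) and 2 antagonist genes (Fst and Fstl3). They were taken by Entrez ID from a fixed list of symbols, and all 10 had an entry among the 24475 genes of both deposited tables. Bulk RNA-seq had been run on 101 libraries of subcutaneous and epididymal white fat from male C57BL/6NTac mice in 2 experiments. In the first, wild-type mice on chow received an AAV8 vector, directed to the liver, for GFP (the control) or for mouse Inhbe (mInhbe), with 10 libraries per group and depot. In the second, untreated mice were wild-type (WT) or Inhbe knockout (KO) and ate chow or a high-fat diet (HFD). That experiment held 8 WT chow, 7 KO chow and 8 KO HFD libraries per depot, and 7 subcutaneous and 8 epididymal WT HFD libraries. All GFP controls thus carry a vector, and the knockout is in the whole animal, not in fat alone. The sources used here give no ages, vector doses, feeding times or knockout design.

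Activins, GDF3, GDF11, myostatin and the TGF-betas are secreted dimers that assemble type I and type II receptor kinases, which then phosphorylate SMAD2 and SMAD3. Inhbe encodes the subunit of activin E, a liver hormone that acts on fat cells through the type I receptor ALK7 (Acvr1c), where signalling restrains lipolysis. GDF3 and activin B are other ligands of ALK7, follistatin (Fst) and follistatin-like 3 (Fstl3) wrap activins and myostatin so that they cannot reach their receptors, and the TGF-betas are secreted in a latent form with receptors of their own. The comparisons ask how fat transcribes these neighbours of activin E when activin E is raised or lost, on chow and on HFD, and in each depot.

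Of the 10 genes, 7 had a promoter in the RefSeq table for GRCm38.p6, and the 4 of them that rose on HFD in WT mice in at least 1 depot are shown, to set the sequence beside the response. Each run is the 250 bases before the annotated start, 5′ to 3′ on the gene's own strand. They lie at chr10:79777024-79777273 (plus strand) for Fstl3, chr7:25686752-25687001 (plus strand) for Tgfb1, chr1:53061390-53061639 (plus strand) for Mstn and chr1:119422249-119422498 (minus strand) for Inhbb. Capitals mark, on either strand, the short SMAD motif CAGACA, the AP-1 site TGANTCA, the GC box GGGCGG, the TATA box TATAAA and the CCAAT box.
Fstl3: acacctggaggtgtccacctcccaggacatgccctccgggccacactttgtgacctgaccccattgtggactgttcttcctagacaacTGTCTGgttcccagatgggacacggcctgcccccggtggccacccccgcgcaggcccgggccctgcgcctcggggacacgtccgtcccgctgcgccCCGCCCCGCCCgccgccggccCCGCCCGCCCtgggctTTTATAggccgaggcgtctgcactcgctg
Tgfb1: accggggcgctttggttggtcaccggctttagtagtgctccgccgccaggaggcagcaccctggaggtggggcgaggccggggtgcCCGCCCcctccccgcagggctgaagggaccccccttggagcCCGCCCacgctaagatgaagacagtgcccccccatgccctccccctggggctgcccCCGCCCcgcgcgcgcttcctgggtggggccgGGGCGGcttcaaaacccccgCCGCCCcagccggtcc
Mstn: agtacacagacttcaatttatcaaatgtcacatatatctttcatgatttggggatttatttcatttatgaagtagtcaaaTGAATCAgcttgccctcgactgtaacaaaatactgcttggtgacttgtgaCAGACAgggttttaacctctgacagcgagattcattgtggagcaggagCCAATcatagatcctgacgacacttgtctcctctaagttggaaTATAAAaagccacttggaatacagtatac
Inhbb: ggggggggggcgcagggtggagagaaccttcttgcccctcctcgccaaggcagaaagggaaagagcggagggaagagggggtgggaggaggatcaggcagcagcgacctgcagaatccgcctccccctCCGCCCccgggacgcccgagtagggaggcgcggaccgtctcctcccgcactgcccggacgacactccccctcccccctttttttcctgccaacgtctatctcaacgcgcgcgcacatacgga
In the Fstl3 window the script found 1 short SMAD motif, 4 GC boxes, of which neighbours overlap, and 1 TATA box whose first base lay 29 bases before the start. The Mstn window held 1 match each to the short SMAD motif, the AP-1 site, the CCAAT box and the TATA box, the latter also starting 29 bases before the start. Tgfb1 held 5 GC boxes and Inhbb 1, with neither a TATA box nor a short SMAD motif in these letters. GC content was 71.2% for Fstl3, 75.2% for Tgfb1, 68.0% for Inhbb and 38.4% for Mstn. Among all 32851 promoter windows of this length 17.1% held the short SMAD motif, 6.75% the AP-1 site, 32.7% the GC box, 12.4% the TATA box and 33.9% the CCAAT box. The palindromic SMAD box GTCTAGAC (0.167% of windows) and the kappa B motif (0.14%) were searched too and were in none of the 7 windows. The E-box CANNTG, in 66.2% of windows, was searched as well and is not marked.

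Levels are given as CPM, the counts of a gene per 1000000 counts of its library. Library totals were 12970508 to 20170739 estimated counts, so that 3 counts, taken as the floor of detection, were worth 0.149 to 0.231 CPM. Inhbe, the targeted gene, was at 0 counts in every GFP AAV library and was read in all mInhbe AAV libraries, at 35 to 846 counts in subcutaneous fat. In WT chow subcutaneous fat it was at 0 in all 8 libraries, so its reads in fat do not test the knockout. Fat cell marker genes summed to 8684 to 35930 CPM over all libraries. Several epididymal libraries held epididymis transcripts and several subcutaneous ones lymph node or muscle transcripts, and some of these sums stand beside the results below. The epididymis list summed to 2.32 to 10240 CPM (median 6295) in GFP AAV and 0.868 to 4911 CPM (median 15.1) in WT chow epididymal libraries. Bulk RNA cannot tell fewer cells of a type from less RNA per cell. The titles call the libraries biological replicates, and p-values measure the spread between them.

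**Figure D1:**
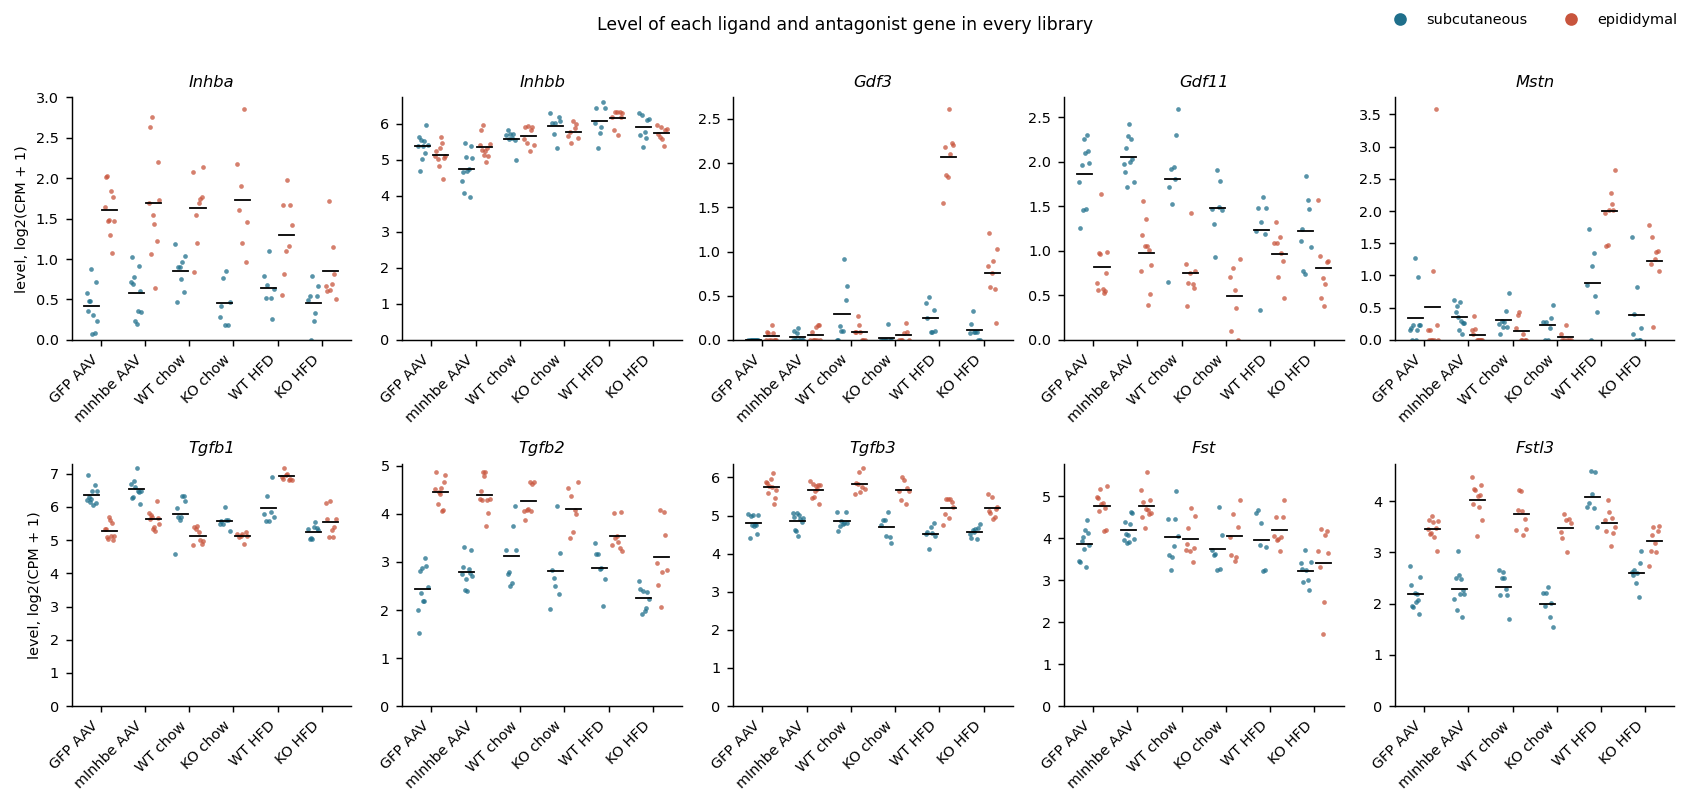
Level of each gene, as log2(CPM + 1) on the vertical axis of each panel, by group; each point is 1 library and each bar the group mean. Every WT HFD epididymal library held Gdf3 at 1.93 to 5.12 CPM, above all other libraries, whereas Tgfb1 and Inhbb were read in every library of all groups.

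Compared per kilobase of exon, Tgfb1 was the highest of the 10 in WT chow subcutaneous fat, at 26.7 ± 8.71 CPM per kilobase (SD, n = 8). Inhbb (11.2 ± 1.75), Tgfb3 (8.26 ± 1.03) and Fst (5.96 ± 2.96) followed, then Fstl3 (2.10 ± 0.523) and Tgfb2 (1.62 ± 0.820), then Gdf11 (0.671 ± 0.327). Inhba, Gdf3 and Mstn were lowest, at 0.129 ± 0.0455, 0.119 ± 0.148 and 0.0929 ± 0.0692. In that order the means of Tgfb3 and Fst, of Fstl3 and Tgfb2, and of the 3 lowest genes lay within 1 SD of their neighbour, taking the larger SD. In WT chow epididymal fat Tgfb3 (16.9 ± 3.05) and Tgfb1 (15.9 ± 2.67) were highest and lay within 1 SD of each other, ahead of Inhbb (11.9 ± 2.16). Fstl3 (6.50 ± 1.70), Fst (5.53 ± 1.96) and Tgfb2 (3.61 ± 0.884) formed a middle group. On HFD the WT epididymal order became Tgfb1 (55.5 ± 4.95), Inhbb (16.7 ± 2.69), Tgfb3 (10.7 ± 1.88), Fst (6.40 ± 2.00), Fstl3 (5.65 ± 1.17), Tgfb2 (2.11 ± 0.541), Gdf3 (1.55 ± 0.451), Mstn (1.15 ± 0.414), Inhba (0.246 ± 0.129) and Gdf11 (0.240 ± 0.0859).

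On chow, 2 calls came with raised activin E (Inhbb and Fstl3, in 1 depot each) and none with its loss. Most calls came with HFD and with depot, comparisons in which 20.7% to 64.5% of all genes were called. A gene was called when its adjusted p was under 0.05 in edgeR's quasi-likelihood F test, with Benjamini-Hochberg adjustment over all genes tested, and each fold change is a log2 value ± SE. The mInhbe AAV changed 1 of 7 tested members in subcutaneous fat, where 27.2% of all genes were called, and 1 of 8 in epididymal fat, where 1.16% were. The KO on chow changed 0 of 9 and 0 of 10 (subcutaneous, then epididymal), against backgrounds of 0.253% and 0.658%. The KO on HFD changed 2 of 9 and 2 of 10, against 18.9% and 37.2%. HFD changed 3 of 9 and 6 of 10 in WT mice, against 44.1% and 54.1%, and 1 of 9 and 5 of 10 in KO mice, against 20.7% and 38.7%. With 7 to 10 members tested and backgrounds this high for HFD, the KO on HFD and the AAV in subcutaneous fat, those counts are no result about the family.

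The effect of the KO differed between diets for 1 of 9 members in subcutaneous fat (background 2.14%) and 1 of 10 in epididymal fat (16.5%). Between depots, the effect differed for 1 of 8 members under the mInhbe AAV (13.5%), 1 of 10 under the KO on HFD (14.6%) and 5 of 10 under HFD in WT mice (33.3%). The depots themselves differed for 7 of 8 members in GFP AAV mice (background 64.5%), 7 of 10 in WT chow (43.1%), 6 of 10 in WT HFD (40.8%) and 6 of 10 in KO HFD mice (41.8%). With so few members tested, the counts of this paragraph are no result about the family either. With lymph node and epididymis scores as covariates, which separate the depots, 8 of the 26 called depot differences stayed called. The KO and HFD comparisons share control libraries, so their values are set side by side only. Gdf3 and Mstn passed the filter on low counts in some fits only, through the groups in which they were high. So did Inhba in the fit of both depots of the AAV experiment, through epididymal fat. It did not pass in that experiment's subcutaneous fat alone.

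**Figure D2:**
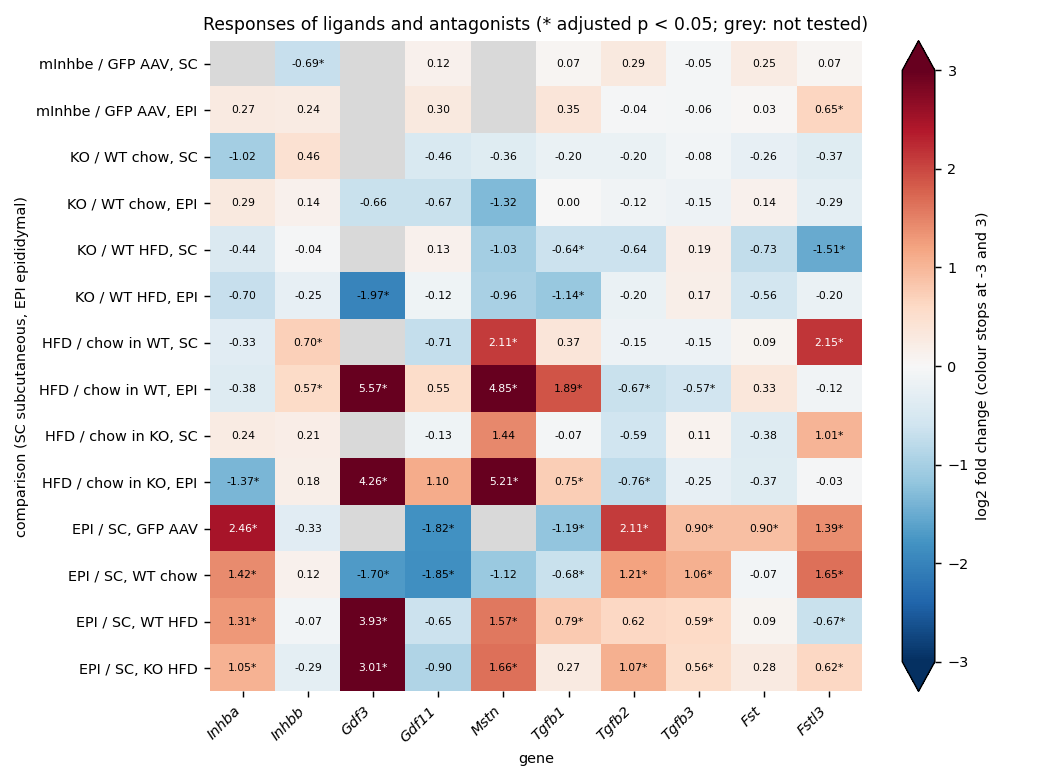
Log2 fold change of each gene (columns) in each comparison (lines, first group over second), with * for adjusted p under 0.05 and grey for a gene not tested; colour stops at -3 and 3. With HFD in WT epididymal fat Gdf3 gave 5.57 and Mstn 4.85, and the other 8 members ran from -0.67 to 1.89. Gdf3 and Mstn passed the filter on low counts through the groups in which they were high, as did Inhba between depots of GFP AAV mice. The size of their change rests on 8 and 13 counts in all WT chow epididymal libraries.

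Inhba encodes the subunit of activin A, a broadly acting ligand that binds follistatin tightly. It was scarce in subcutaneous fat, at 0.0538 to 0.842 CPM (median 0.334) in GFP AAV mice, and ran from 1.10 to 3.06 CPM (median 1.96) in their epididymal fat. The depots did not overlap in this group (log2 fold change 2.46 ± 0.39, adjusted p = 5.87e-07). Inhba entered this test through its epididymal libraries, since the subcutaneous ones held a median of 5.5 counts with GFP. In WT chow mice subcutaneous libraries held 0.381 to 1.27 CPM (median 0.868) and epididymal ones 0.791 to 3.39 CPM (median 2.29), which overlap at the low end (log2 fold change 1.42 ± 0.41, adjusted p = 0.00337). The difference was 1.31 ± 0.43 in WT HFD and 1.05 ± 0.43 in KO HFD mice, with adjusted p = 0.0122 and 0.0439, and the latter call ended without libraries rich in muscle transcripts (adjusted p = 0.0693). The 7 measured mesothelium markers, genes of the lining that covers epididymal fat, summed to 165 to 542 CPM (median 299) in WT chow epididymal and 8.06 to 21.4 CPM (median 13.7) in subcutaneous fat, and their part in the result was not tested. With the tissue scores as covariates no depot difference of Inhba was called in these 4 groups. The values were then -0.60 in GFP AAV, 0.11 in WT chow, 0.72 in WT HFD and -0.12 in KO HFD mice, so that the first and the last had the other sign (adjusted p = 0.900, 0.919, 0.176 and 0.881).

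In epididymal fat of KO mice Inhba ran from 0.949 to 6.25 CPM (median 2.05) on chow and 0.426 to 2.29 CPM (median 0.600) on HFD. Of 8 HFD libraries 6 lay under the lowest chow library and none above the highest, and the gene fell (log2 fold change -1.37 ± 0.40, adjusted p = 0.00756). The call ended without the libraries in which the value of a member stood apart (adjusted p = 0.0947). The mesothelium sum moved with it, from 196 to 416 CPM (median 316) to 30.5 to 224 CPM (median 112). The epididymis sum went from 4.51 to 3990 CPM (median 1715) to 0.0573 to 2241 CPM (median 595). KO HFD libraries with epididymis sums of 2137, 2178 and 2241 CPM held the most Inhba, 0.762, 1.21 and 2.29 CPM. The KO chow library with the highest sum, 3990 CPM, held 1.75 CPM, under its group's median. The part of these tissues was not tested. In WT mice HFD gave -0.38 ± 0.38 (adjusted p = 0.408), while the median mesothelium sum went from 299 to 63.0 CPM. The difference between genotypes did not pass (log2 fold change -0.99 ± 0.55, adjusted p = 0.252). The mInhbe AAV gave 0.27 ± 0.32 in epididymal fat (adjusted p = 0.762), while in subcutaneous fat of that experiment Inhba had too few counts to be tested.

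Inhbb encodes the subunit of activin B, which is abundant in fat cells. In subcutaneous fat it was 24.8 to 62.0 CPM (median 41.3) with GFP and 14.6 to 43.6 CPM (median 25.2) with mInhbe AAV. The ranges overlap, yet 9 of 10 mInhbe libraries lay under the GFP mean and 4 under the lowest GFP library, and Inhbb fell (log2 fold change -0.69 ± 0.20, adjusted p = 0.0144). Epididymal libraries held 21.3 to 48.9 CPM (median 33.3) with GFP and 29.9 to 61.3 CPM (median 38.1) with mInhbe, with 7 of 10 above the GFP mean (log2 fold change 0.24 ± 0.14, adjusted p = 0.526). The difference in response between depots passed the test (log2 fold change 0.91 ± 0.25, adjusted p = 0.0168). Adjusted for a lymph node score, the subcutaneous fall was -0.31 and no longer called (adjusted p = 0.336), nor was the depot difference (adjusted p = 0.0910). With a replicate block the depot difference was not called either. The lymph node list summed to 703 to 1568 CPM (median 1079) in GFP and 932 to 2109 CPM (median 1428) in mInhbe subcutaneous libraries, and the fat cell list to 16420 to 20370 CPM (median 18510) and 11700 to 18250 CPM (median 14140).

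On HFD Inhbb rose in WT mice in both depots. Subcutaneous libraries went from 31.1 to 56.1 CPM (median 49.1) on chow to 39.1 to 96.1 CPM (median 63.6) on HFD, with overlap (log2 fold change 0.70 ± 0.18, adjusted p = 0.00282). Epididymal libraries went from 37.3 to 60.0 CPM (median 51.5) to 50.4 to 79.9 CPM (median 75.3) (log2 fold change 0.57 ± 0.14, adjusted p = 0.00113). Of 8 epididymal HFD libraries 6 lay above the highest chow library, as did 5 of 7 in subcutaneous fat. The fat cell list went the other way in epididymal fat, from 13970 to 23230 CPM (median 19960) to 11620 to 18780 CPM (median 15970). Of its 7 genes 5 were lower and 1 higher, where 54.1% of all genes were called. In subcutaneous fat the list rose with Inhbb, from 11680 to 21380 CPM (median 18740) to 21390 to 35930 CPM (median 23230). There 3 of its 7 genes were higher and 0 lower, where 44.1% of all genes were called. The part of fat cell content in the Inhbb results was not tested. The subcutaneous call ended without 9 libraries that earlier results of these data set apart, which leaves 3 of the 7 WT HFD libraries (adjusted p = 0.0607). KO mice gave 0.21 ± 0.18 and 0.18 ± 0.15 for the same diet step in subcutaneous and epididymal fat (adjusted p = 0.454 and 0.333). The difference between genotypes did not pass in subcutaneous (log2 fold change -0.50 ± 0.26, adjusted p = 0.382) or epididymal fat (log2 fold change -0.39 ± 0.20, adjusted p = 0.215). Between depots Inhbb gave -0.33 ± 0.17 in GFP AAV, 0.12 ± 0.16 in WT chow, -0.07 ± 0.16 in WT HFD and -0.29 ± 0.16 in KO HFD mice, none of which passed (adjusted p = 0.0869, 0.582, 0.767 and 0.138). The GFP difference was called in a fit of only those groups (adjusted p = 0.0434), without the libraries rich in muscle (0.0335) and with the tissue scores as covariates, at -3.14 (0.00880). The KO HFD one was called without the libraries in which a member stood apart (0.0408).

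Gdf3 encodes a ligand of ALK7 that macrophages of fat are known to make. It was near the floor in most of the study, with 0 counts in all 10 GFP subcutaneous libraries and at most 2 counts in any other library of the AAV experiment, where it was not tested. In WT epididymal fat it was 0 to 0.206 CPM (median 0.0641) on chow, where all 8 libraries together held 8 counts, and 1.93 to 5.12 CPM (median 3.42) on HFD, at 29 to 84 counts per library. Every HFD library lay above every chow library (log2 fold change 5.57 ± 0.54, adjusted p = 4.66e-10). KO HFD libraries held 0.139 to 1.32 CPM (median 0.742), all under the lowest WT HFD library (log2 fold change -1.97 ± 0.42, adjusted p = 0.000403). The mean was 0.728 ± 0.362 CPM (SD, n = 8) in KO and 3.30 ± 0.959 CPM (SD, n = 8) in WT HFD mice, a ratio of 0.220.

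KO mice still raised Gdf3 on HFD in epididymal fat (log2 fold change 4.26 ± 0.61, adjusted p = 2.39e-06), from 4 counts in all 7 chow libraries to 93 in 8. The fitted size rests on those few chow counts and was 5.31 without the libraries in which a member stood apart. Whether the KO effect differed between diets did not pass (log2 fold change -1.31 ± 1.06, adjusted p = 0.484), with the chow groups at or near the floor. Subcutaneous Gdf3 was 0.0601 to 0.399 CPM (median 0.185) in WT HFD mice, so the depots did not overlap there (log2 fold change 3.93 ± 0.60, adjusted p = 4.21e-07). The HFD effect differed between depots (log2 fold change 5.63 ± 0.89, adjusted p = 1.23e-06). In KO HFD mice the depot difference was 3.01 ± 0.62 (adjusted p = 0.000111). On chow the sign was the other way (log2 fold change -1.70 ± 0.67, adjusted p = 0.0337), but with 29 against 8 counts in total, and that call ended without the libraries rich in muscle transcripts (adjusted p = 0.199).

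Macrophage transcripts moved with Gdf3. None of the 9 macrophage markers was at 0 in any group. The 9 macrophage markers summed to 872 to 1406 CPM (median 1056) in WT chow, 4224 to 5325 CPM (median 4394) in WT HFD and 1006 to 2328 CPM (median 1371) in KO HFD epididymal libraries. Among WT HFD epididymal libraries, the one with the highest Gdf3, at 5.12 CPM, also had the highest macrophage sum, 5325 CPM. That library also held 4243 CPM of liver markers, against a group median of 3.82 CPM. The library with the lowest Gdf3, at 1.93 CPM, had a macrophage sum of 4442 CPM, above the group's median. Among KO HFD libraries the highest macrophage sum, 2328 CPM, came with 0.790 CPM of Gdf3 and the highest Gdf3, 1.32 CPM, with a sum of 1625 CPM. In WT chow subcutaneous fat the 3 libraries with the most Gdf3, at 0.364, 0.529 and 0.880 CPM, had macrophage sums of 2087, 1511 and 2130 CPM. The sums of the other 5 ran from 455 to 782 CPM. The part of macrophage number in the Gdf3 result was not tested.

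Gdf11 encodes a close relative of myostatin. Its level was higher in subcutaneous than epididymal fat, at 1.39 to 3.93 CPM (median 2.93) against 0.442 to 2.12 CPM (median 0.620) in GFP AAV mice (log2 fold change -1.82 ± 0.26, adjusted p = 7.23e-08) and 0.573 to 5.02 CPM (median 2.63) against 0.304 to 1.68 CPM (median 0.616) in WT chow mice (log2 fold change -1.85 ± 0.39, adjusted p = 0.000118). In GFP AAV mice the ranges overlapped through 1 epididymal library of 2.12 CPM, with the other 9 under every subcutaneous one. In WT chow mice they overlapped through 1 subcutaneous library of 0.573 CPM, with 4 of 8 epididymal libraries under it and the other 7 subcutaneous ones, from 1.88 CPM, above all epididymal ones. That subcutaneous library had the lowest lymph node sum of its group, 7.45 CPM. In WT HFD subcutaneous fat the lowest Gdf11, 0.266 CPM, was instead in a library with a lymph node sum of 674 CPM, and the 3 libraries with sums of 9.59 to 13.4 CPM held 1.33 to 1.79 CPM of Gdf11. On HFD the difference was -0.65 ± 0.40 in WT and -0.90 ± 0.39 in KO mice (adjusted p = 0.190 and 0.0591). Subcutaneous WT libraries held 0.266 to 2.04 CPM (median 1.50) on HFD, and the step from chow did not pass (log2 fold change -0.71 ± 0.33, adjusted p = 0.0807). Lymph node markers, which differ between depots in the same direction, summed to 7.45 to 1345 CPM (median 1004) in WT chow subcutaneous and 8.49 to 48.7 CPM (median 21.2) in epididymal libraries, and both depot calls ended with the tissue scores as covariates (adjusted p = 0.631 and 0.128). The scores themselves separate the depots, so that fit leaves little of a depot difference and cannot test the part of lymph node content. That part was not tested.

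Mstn encodes myostatin, the muscle hormone that limits muscle growth. In WT epididymal fat it was 0 to 0.344 CPM (median 0.0336) on chow, with 4 of 8 libraries at 0, and 1.74 to 5.24 CPM (median 3.03) on HFD. No HFD library overlapped chow (log2 fold change 4.85 ± 0.63, adjusted p = 1.35e-07). KO mice showed a step in the same direction, from 4 counts in 7 chow libraries to 183 in 8 HFD libraries of 0.154 to 2.44 CPM (median 1.49) (log2 fold change 5.21 ± 0.74, adjusted p = 2.45e-06). That fitted size was 6.32 without the libraries in which a member stood apart. Between genotypes on HFD the ranges overlap, and the difference did not pass (log2 fold change -0.96 ± 0.50, adjusted p = 0.137), although it did with DESeq2 (adjusted p = 0.0487) and in a fit of the HFD groups alone (0.0448).

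Skeletal muscle, the main source of Mstn in the body, left transcripts in these libraries. Of its 12 markers 9 rose on HFD in WT and 10 in KO epididymal fat, where 54.1% and 38.7% of all genes were called. Their sums were 18.5 to 182 CPM (median 42.6) in WT chow and 30.6 to 788 CPM (median 120.4) in WT HFD epididymal fat. The WT HFD library with the most Mstn, 81 counts or 5.24 CPM, had a muscle sum of 30.6 CPM, and the one with the highest muscle sum, 788 CPM, had 3.84 CPM of Mstn. The latter library also held 4243 CPM of liver markers. Among KO HFD libraries the one with the most Mstn, 2.44 CPM, had the highest muscle sum, 1507 CPM. Leaving out every library over 500 CPM of muscle markers gave a rise of 4.78 in WT and 5.00 in KO epididymal fat, both still called. The part of the muscle transcripts in the other libraries was not tested. In the GFP groups of the AAV experiment the libraries with the most Mstn were also those with the most muscle. The GFP epididymal library with 190 counts of Mstn, 11.0 CPM, held 4396 CPM of muscle and 1295 CPM of brown fat markers. The GFP subcutaneous libraries with the most Mstn, 25 and 16 counts, held 3497 and 2102 CPM of muscle markers. In the mInhbe groups this was not so. The epididymal library with the most Mstn, 0.287 CPM, held 199.6 CPM of muscle markers, and the one with the most muscle, 352 CPM, held 0 counts of Mstn. In subcutaneous fat the most Mstn, 0.528 CPM, came with 391 CPM of muscle markers, and the most muscle, 604 CPM, with 0.226 CPM of Mstn.

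In subcutaneous WT fat Mstn went from 0.0635 to 0.661 CPM (median 0.199) on chow to 0 to 2.29 CPM (median 0.798) on HFD, with overlap (log2 fold change 2.11 ± 0.75, adjusted p = 0.0235). The WT HFD library with 1.55 CPM of Mstn had the lowest muscle sum of its group, 31.7 CPM, and the one with 2.29 CPM the highest, 946 CPM. That call ended when adjusted for the lymph node score (adjusted p = 0.131) and without the libraries set apart (0.270), and without the libraries rich in muscle Mstn was too low to be tested there. The depots differed on HFD by 1.57 ± 0.66 in WT and 1.66 ± 0.66 in KO mice (adjusted p = 0.0493 and 0.0373). The WT difference ended under 7 alternatives, among them DESeq2 (adjusted p = 0.0569), and the KO one under 4, among them leaving out the libraries rich in muscle (0.0803). The HFD step itself differed between depots in WT mice (log2 fold change 2.69 ± 1.05, adjusted p = 0.0406), but not without the libraries rich in muscle (0.0883).

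**Figure D3:**
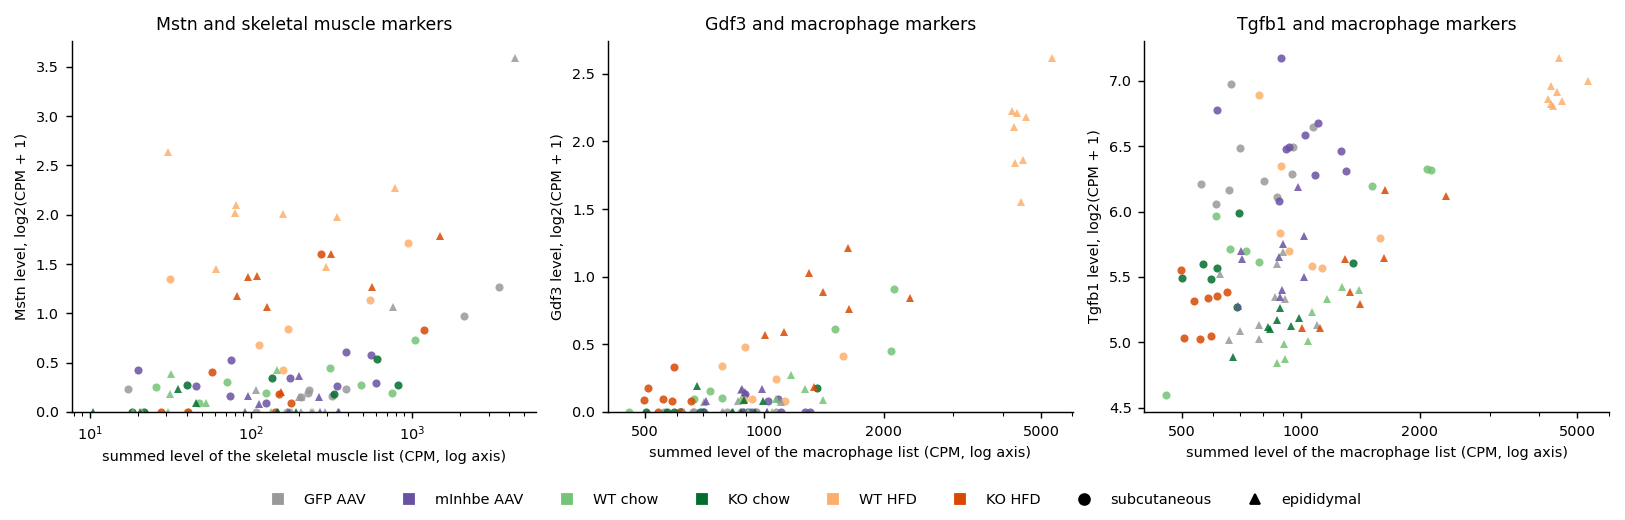
Level of Mstn against the summed skeletal muscle markers, and of Gdf3 and Tgfb1 against the summed macrophage markers, as log2(CPM + 1) over a log axis in CPM; each point is 1 library, coloured by group and shaped by depot. WT HFD epididymal libraries stand apart at macrophage sums of 4224 to 5325 CPM, while their Mstn is spread over muscle sums of 30.6 to 788 CPM.

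Tgfb1 encodes TGF-beta 1, which immune cells, among others, secrete and which drives matrix production. In WT epididymal fat it rose from 27.7 to 41.9 CPM (median 34.0) on chow to 111 to 143 CPM (median 117) on HFD. Every HFD library lay above every chow library (log2 fold change 1.89 ± 0.15, adjusted p = 7.72e-12). In KO HFD mice it was 33.5 to 70.8 CPM (median 44.8), under every WT HFD library (log2 fold change -1.14 ± 0.15, adjusted p = 3.20e-07), and the step from chow in KO mice was smaller (log2 fold change 0.75 ± 0.15, adjusted p = 0.000306). On chow WT and KO held 34.6 ± 5.81 CPM (SD, n = 8) and 33.9 ± 2.71 CPM (SD, n = 7). The KO effect differed between diets (log2 fold change -1.14 ± 0.21, adjusted p = 0.000323). All 9 macrophage markers rose on HFD in WT and fell in KO HFD against WT HFD epididymal fat, with the sums given for Gdf3. Of all genes 54.1% and 37.2% were called in these steps. The part of the macrophage markers in the Tgfb1 result was not tested.

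Subcutaneous Tgfb1 was 46.4 to 118 CPM (median 54.7) in WT HFD and 31.6 to 45.9 CPM (median 39.1) in KO HFD mice, without overlap (log2 fold change -0.64 ± 0.18, adjusted p = 0.0120). The highest and lowest of these libraries sit close, at 45.9 and 46.4 CPM. Macrophage sums differed in the same direction, at 782 to 1582 CPM (median 933) and 497 to 651 CPM (median 569.7). Their part in the Tgfb1 difference was not tested. Within WT HFD the library with the most Tgfb1, 117.5 CPM, had a macrophage sum of 782 CPM, and the one with the highest sum, 1582 CPM, had 54.7 CPM of Tgfb1. HFD in WT mice gave 0.37 ± 0.18 in this depot (adjusted p = 0.0914). It was 0.73 and called when adjusted for the lymph node score (adjusted p = 0.000431) and was called without the libraries rich in muscle (0.0236). The step was larger in epididymal fat (log2 fold change 1.46 ± 0.23, adjusted p = 1.52e-06).

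Between depots Tgfb1 was lower in epididymal fat of GFP AAV mice, at 31.3 to 50.7 CPM (median 36.7) against 65.8 to 125 CPM (median 75.8), with no overlap (log2 fold change -1.19 ± 0.13, adjusted p = 1.65e-10), and of WT chow mice (log2 fold change -0.68 ± 0.16, adjusted p = 0.000526). The lymph node sums given for Gdf11 differed in the same direction. With the tissue scores as covariates the WT chow difference was 0.16 (adjusted p = 0.653) and the GFP one -0.77 (0.530). In WT HFD mice epididymal Tgfb1 was higher (log2 fold change 0.79 ± 0.17, adjusted p = 0.000156), while in KO HFD mice the depot difference did not pass (log2 fold change 0.27 ± 0.16, adjusted p = 0.169). In the mInhbe AAV experiment Tgfb1 was 38.6 ± 7.01 CPM (SD, n = 10) with GFP and 49.2 ± 9.86 CPM (SD, n = 10) with mInhbe in epididymal fat, a difference that did not pass (log2 fold change 0.35 ± 0.11, adjusted p = 0.167) except without the libraries in which a member stood apart (0.0252).

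Tgfb2 and Tgfb3 encode the other TGF-betas, with Tgfb2 needing the coreceptor betaglycan to bind well. Both were higher in epididymal fat of chow-fed mice. Tgfb2 was 1.88 to 7.44 CPM (median 4.37) in subcutaneous and 15.8 to 28.3 CPM (median 21.4) in epididymal GFP libraries, with no overlap (log2 fold change 2.11 ± 0.17, adjusted p = 3.04e-14). In WT chow mice the difference was 1.21 ± 0.26, in WT HFD 0.62 ± 0.27 and in KO HFD 1.07 ± 0.27, of which the second did not pass (adjusted p = 0.000163, 0.0640 and 0.00137). Tgfb3 was 23.2 to 33.3 CPM (median 26.9) in subcutaneous and 46.3 to 75.5 CPM (median 54.5) in epididymal WT chow libraries, again with no overlap (log2 fold change 1.06 ± 0.13, adjusted p = 9.78e-10). Its depot difference was 0.90 ± 0.11 in GFP AAV, 0.59 ± 0.13 in WT HFD and 0.56 ± 0.13 in KO HFD mice, all called. Of these 7 called differences all of Tgfb2 and that of Tgfb3 in GFP AAV mice ended with the tissue scores as covariates.

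On HFD both fell in WT epididymal fat, where Tgfb1 rose. Tgfb2 went from 13.6 to 24.5 CPM (median 16.1) to 8.34 to 15.5 CPM (median 10.0), with some overlap (log2 fold change -0.67 ± 0.22, adjusted p = 0.0126). Tgfb3 went from 46.3 to 75.5 CPM (median 54.5) to 26.0 to 42.4 CPM (median 38.2), with no overlap (log2 fold change -0.57 ± 0.13, adjusted p = 0.000720). In KO mice Tgfb2 fell by the same test (log2 fold change -0.76 ± 0.23, adjusted p = 0.0103), a call that ended in a fit of the KO groups alone (adjusted p = 0.0502). Tgfb3 gave -0.25 ± 0.14 there (adjusted p = 0.143), and was called under 4 alternatives, DESeq2 among them (0.0440). The mesothelium sum went from 165 to 542 CPM (median 299) to 35.9 to 191 CPM (median 63.0) over the same step in WT mice. Of its 7 tested markers 6 fell, where 54.1% of all genes were called. The part of mesothelium in the fall of Tgfb2 and Tgfb3 was not tested. The KO HFD epididymal libraries with epididymis sums of 2137, 2178 and 2241 CPM held the most Tgfb2, 10.9, 15.3 and 15.9 CPM. The part of epididymis transcripts was not tested either. Neither gene passed with the mInhbe AAV or with the KO on chow or HFD. The HFD step of Tgfb3 differed between depots (log2 fold change -0.47 ± 0.18, adjusted p = 0.0383), a call that ended under 7 alternatives, with the smallest change without the libraries set apart (-0.25, adjusted p = 0.382).

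Fst encodes follistatin, which neutralises activins, GDF11 and myostatin. It passed in 1 comparison, between depots of GFP AAV mice, at 8.89 to 20.8 CPM (median 13.8) in subcutaneous and 17.1 to 37.1 CPM (median 27.5) in epididymal libraries (log2 fold change 0.90 ± 0.15, adjusted p = 3.21e-06). The ranges overlap a little, and the call ended with the tissue scores as covariates (adjusted p = 0.0953). In WT chow mice the depots gave -0.07 ± 0.28 (adjusted p = 0.861). In WT chow epididymal fat the libraries with epididymis sums of 1696, 2489 and 4911 CPM held 17.9, 22.1 and 25.4 CPM of Fst. The others, with sums of 0.868 to 15.9 CPM, held 9.82 to 13.4 CPM. In GFP AAV mice the lowest and highest epididymis sums, 2.32 and 10240 CPM, came with 17.13 and 17.25 CPM of Fst. The tissue scores separate the depots, so the fit with them cannot test the part of epididymis transcripts in the depot difference. That part was not tested. On HFD Fst was 8.29 to 24.6 CPM (median 13.3) in WT and 5.83 to 12.2 CPM (median 8.49) in KO subcutaneous fat, with overlap (log2 fold change -0.73 ± 0.28, adjusted p = 0.0690). Without the libraries in which a member stood apart the same difference was -0.77 and called (adjusted p = 0.0452). The mInhbe AAV gave 0.25 ± 0.13 in subcutaneous and 0.03 ± 0.16 in epididymal fat (adjusted p = 0.154 and 0.956).

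Fstl3 encodes a secreted relative of follistatin that binds activins and myostatin, and it changed with HFD and with the KO in subcutaneous fat. WT libraries went from 2.25 to 5.29 CPM (median 4.26) on chow to 10.3 to 22.9 CPM (median 14.5) on HFD, and KO HFD libraries held 3.40 to 7.19 CPM (median 5.11). Every WT HFD library lay above every WT chow and every KO HFD library. The mean in WT mice was 3.99 times as high on HFD as on chow (log2 fold change 2.15 ± 0.20, adjusted p = 1.06e-09), and the KO lowered Fstl3 on HFD (log2 fold change -1.51 ± 0.20, adjusted p = 2.09e-06). In KO mice HFD raised it as well (log2 fold change 1.01 ± 0.21, adjusted p = 0.000671), from 3.06 ± 0.745 CPM (SD, n = 7) to 5.15 ± 1.11 CPM (SD, n = 8). On chow the KO difference did not pass (log2 fold change -0.37 ± 0.21, adjusted p = 0.831). Marker lists are set beside these steps. With HFD in WT subcutaneous fat, where 44.1% of all genes were called, 3 of 9 macrophage, 4 of 7 endothelium and 3 of 7 fat cell markers rose. Of 7 brown or beige fat markers 1 rose and 3 fell there. In KO against WT HFD mice (18.9% of all genes called) 6 macrophage, 4 endothelium and 1 fat cell markers fell while 5 brown or beige fat markers rose. In WT chow, WT HFD and KO HFD libraries the macrophage list summed to 455 to 2130 CPM (median 755), 782 to 1582 CPM (median 933) and 497 to 651 CPM (median 569.7). The endothelium list summed to 719.5 to 996 CPM (median 919), 738 to 1375 CPM (median 1171) and 619.6 to 799.6 CPM (median 694), and the brown or beige fat list to 33.3 to 233 CPM (median 75.3), 34.3 to 54.7 CPM (median 43.8) and 80.5 to 148 CPM (median 113). The fat cell list summed to 11680 to 21380 CPM (median 18740), 21390 to 35930 CPM (median 23230) and 19750 to 25050 CPM (median 22610). No marker of these lists was at 0 in these groups, and their part in the Fstl3 result was not tested.

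The KO effect on Fstl3 differed between diets in subcutaneous fat (log2 fold change -1.14 ± 0.29, adjusted p = 0.0265). That call ended without the libraries rich in muscle (adjusted p = 0.136) and without the libraries set apart (0.0863), at values of -1.06 and -1.13. In epididymal fat Fstl3 was 9.08 to 17.6 CPM (median 12.3) in WT chow, 7.74 to 15.2 CPM (median 10.9) in WT HFD and 5.66 to 10.4 CPM (median 8.60) in KO HFD libraries, all overlapping. There HFD gave -0.12 ± 0.16 and the KO on HFD -0.20 ± 0.16 (adjusted p = 0.564 and 0.356). The depots differed in both effects, for HFD in WT mice (log2 fold change -2.32 ± 0.26, adjusted p = 2.51e-10) and for the KO on HFD (log2 fold change 1.30 ± 0.25, adjusted p = 0.000553).

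On chow Fstl3 was higher in epididymal fat, with no overlap in GFP AAV (log2 fold change 1.39 ± 0.17, adjusted p = 2.68e-09) or WT chow mice (log2 fold change 1.65 ± 0.18, adjusted p = 1.38e-10). With the tissue scores as covariates the GFP call ended, at 0.27 (adjusted p = 0.895), and the WT chow one stayed, at 1.57 (6.80e-06). On HFD the sign was the other way in WT mice (log2 fold change -0.67 ± 0.18, adjusted p = 0.00228), a call that ended without the libraries set apart (adjusted p = 0.0657), while in KO HFD mice epididymal fat stayed higher (log2 fold change 0.62 ± 0.18, adjusted p = 0.00434). The mInhbe AAV raised Fstl3 in epididymal fat, from 7.17 to 12.1 CPM (median 10.1) to 8.93 to 21.2 CPM (median 16.2) (log2 fold change 0.65 ± 0.13, adjusted p = 0.0118). Of 10 mInhbe libraries 8 lay above the highest GFP library and 1 below the GFP mean. In subcutaneous fat the AAV gave 0.07 ± 0.20 (adjusted p = 0.822), and the difference between depots did not pass (log2 fold change 0.57 ± 0.24, adjusted p = 0.0909). The span of Fstl3 overlaps that of Prss57, whose median was 0.131 CPM, and the strand setting of the counting is not known here.

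**Figure D4:**
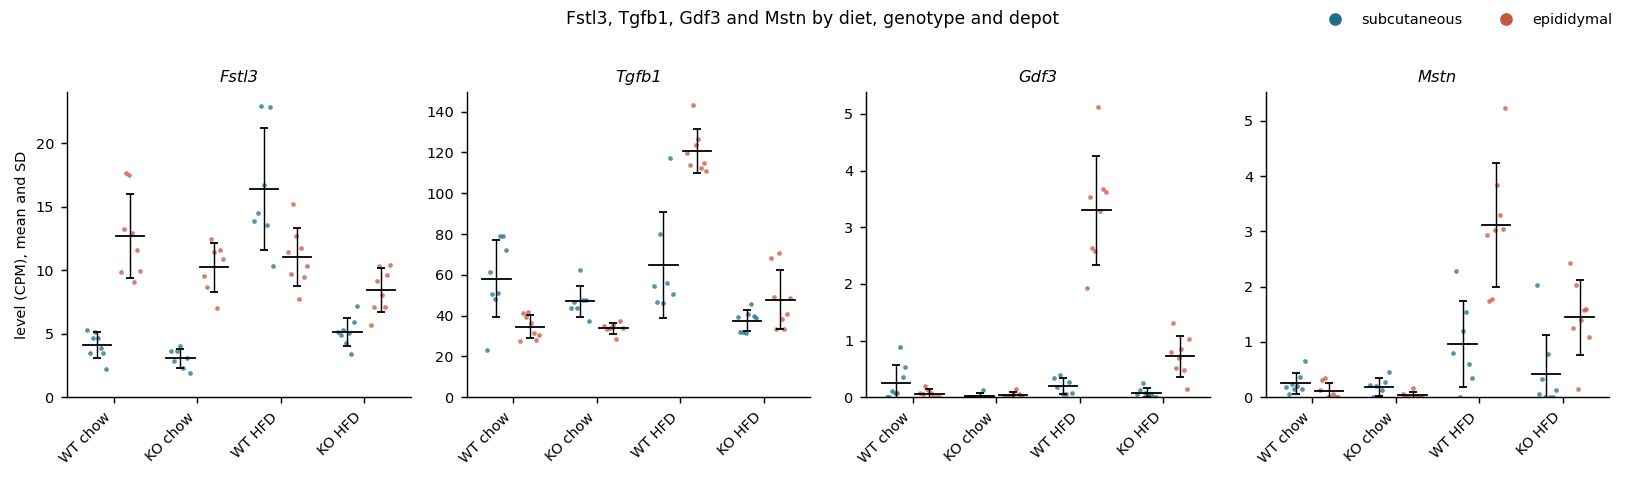
CPM of Fstl3, Tgfb1, Gdf3 and Mstn in the KO experiment, with each library as a point and the group mean ± SD as bars, by diet, genotype and depot. Fstl3 is highest in subcutaneous WT HFD fat (10.3 to 22.9 CPM), the other 3 in epididymal WT HFD fat.

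The KO on chow gave no call by edgeR among the 9 members tested in subcutaneous or the 10 tested in epididymal fat, and DESeq2 gave none in either depot. An unadjusted p under 0.05 was reached by 2 members in subcutaneous fat, Inhba (-1.02 ± 0.43) and Inhbb (0.46 ± 0.18), and by 0 in epididymal fat. In KO HFD against WT HFD mice the called members were Fstl3 and Tgfb1 in subcutaneous and Gdf3 and Tgfb1 in epididymal fat, all lower. In subcutaneous fat 3 members were called with the lymph node score as covariate, 1 of them higher, and likewise without the libraries set apart. In a fit of the HFD groups alone 3 were called there, all lower, as without the libraries in which a member stood apart.

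The receptor of activin E, Acvr1c, rose in KO against WT mice on HFD in subcutaneous (1.06 ± 0.23) and epididymal fat (1.52 ± 0.25). It fell on HFD in WT mice in both (-0.57 ± 0.23 and -2.02 ± 0.26). In epididymal fat 6 of 7 fat cell markers rose in KO HFD mice (median 0.97), while 1 rose and 5 fell with HFD in WT mice (-1.07). All 9 macrophage markers moved the other way in both steps. In subcutaneous fat the fat cell list had 0 higher and 1 lower, then 3 higher and 0 lower. Of all genes 37.2% and 54.1% were called in these steps in epididymal fat, and 18.9% and 44.1% in subcutaneous fat. The part of these lists in the Acvr1c results was not tested. Of 16 SMAD2/3 feedback and target genes, which respond to this family's signalling, 6 rose with the mInhbe AAV in subcutaneous fat, led by Ldlrad4 (1.07 ± 0.11), Pmepa1 (0.95 ± 0.14), Skil (0.85 ± 0.17) and Nedd9 (0.54 ± 0.11). The list's median was 0.15 there, and 27.2% of all genes were called. In epididymal fat 2 rose, Pmepa1 (1.43 ± 0.22) and Nedd9 (0.81 ± 0.15), with a median of 0.24 and 1.16% of all genes called. In KO HFD mice 10 fell in subcutaneous fat, with a median of -0.64 (18.9% of all genes called), and 12 fell and 1 rose in epididymal fat, with a median of -0.56 (37.2% of all genes called). Pmepa1, which feeds back on SMAD signalling, fell in both (-3.14 ± 0.23 and -2.59 ± 0.13). The median over all genes tested lay between -0.01 and 0.01 in these 4 comparisons. With the KO on chow 1 of the 16 fell in subcutaneous fat, with a list median of -0.26 (0.253% of all genes called). In epididymal fat 2 fell, with a list median of -0.19 (0.658% of all genes called). None rose in either depot.

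Among 16 genes of latent TGF-beta storage and activation, 3 of 15 tested rose with the mInhbe AAV in subcutaneous and 2 of 16 in epididymal fat, and none fell, against 27.2% and 1.16% of all genes called. Adamtsl2, which binds the latent TGF-beta complex in the matrix, rose in both (3.13 ± 0.38 and 3.27 ± 0.20). In KO HFD mice 7 fell in each depot (of 15 and 16 tested), with medians of -0.55 and -0.39. With 18.9% and 37.2% of all genes called, the epididymal count is near its background. They included Ltbp3, a latent TGF-beta binding protein (-1.39 ± 0.18), and Adamtsl2 (-2.75 ± 0.39) in subcutaneous fat. In epididymal fat they included the metalloproteinase Mmp14 (-0.96 ± 0.12) and Nrros (-1.18 ± 0.17), which holds latent TGF-beta on macrophages. With HFD in WT epididymal fat 5 of 16 rose and 5 fell, where 54.1% of all genes were called. Of the 8 SMAD genes, none was called with the AAV and 2 fell in KO HFD fat of each depot, with Smad1, which carries BMP signals, in both (-0.54 ± 0.08 and -0.34 ± 0.08). Of 6 tested proteases that process these ligands, Bmp1 alone was called in KO HFD fat, and fell in both depots (-0.75 ± 0.18 and -0.74 ± 0.11).

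For each member with a mean of at least 1 CPM, the other genes with the most similar pattern were ranked by Pearson r of log2(CPM + 1) over the 101 libraries, among 14213 genes. Depot, diet and library make-up are shared by all these points, so r is a description. Tgfb1 was nearest to Tubb5 (r = 0.960) and Rhog (0.947). Fstl3 was nearest to Lbp (0.887), Nkd1 (0.881) and Ppfia3 (0.881), and Tgfb2 to Col4a5 (0.924), Map1b (0.924) and Armh4 (0.907). Tgfb3 followed Nkain4 (0.905), Rspo1 (0.900) and Fras1 (0.900), and Inhba followed Cftr (0.864), Gja1 (0.853) and Sult1d1 (0.847). Gdf11 was nearest to Tmem131l (0.852), H2-T24 (0.850) and Ppp1r16b (0.845). The lowest values were those of Fst, with Ipmk (0.794), Emb (0.776) and Gpsm2 (0.762), and Inhbb, with Col15a1 (0.754), Ephb2 (0.709) and Prr32 (0.709). Gdf3 and Mstn were under 1 CPM on average.

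The members lie on 6 chromosomes of GRCm38. Inhba is at chr13:16004256-16031609 and Fst at chr13:114452262-114458989, Inhbb at chr1:119415463-119422248, Mstn at chr1:53061640-53068079 and Tgfb2 at chr1:186622787-186709697. Gdf3 is at chr6:122605403-122610087, Tgfb1 at chr7:25687002-25705077, Fstl3 at chr10:79777274-79782630, Gdf11 at chr10:128880524-128891718 and Tgfb3 at chr12:86056743-86079041. Values are sums over each gene, so exons and isoforms are not told apart.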

How the data were processed

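Bulk mRNA libraries had been sequenced in paired ends, per the labels' protocols. The authors deposited 2 tables of estimated counts per Entrez gene, of which 2.94% were not whole (tolerance 1e-06), and they were rounded here. The build was mm10 per the submitters' processing notes. Neither aligner nor counter is named in these sources, nor whether molecular identifiers were used. Gene symbols and places came from RefSeq GRCm38.p6 (24375 of 24475 genes matched), exon lengths from GENCODE vM21. CPM is per library total.

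Fold changes came from edgeR 4.0.16 (R 4.3.3, limma 3.58.1) with TMM scaling, its filter on low counts (minimum count 10, minimum total 15) and robust quasi-likelihood F tests, adjusted over all genes tested. Each depot was fitted with all its groups, and depot comparisons over both depots. SE is the fold change over the root of F. DESeq2 1.42.0, RLE size factors, no filter, a replicate block, lymph node and epididymis marker scores as covariates and left-out libraries were alternatives. The 9 libraries set apart came from earlier results of these data: GFP subcutaneous library 2 and epididymal 7 and 8, and, subcutaneous, WT chow 1, WT HFD 1, 2, 4 and 6 and KO HFD 2. The spread, as edgeR's biological coefficient of variation, was 0.219 to 0.341. No pair of libraries in a group was a copy (383 pairs compared). The script was tested on simulated data. Tables were handled with pandas 2.3.3 and figures drawn with matplotlib 3.10.9.

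The members and lists were chosen with earlier results of these data known. The text names all 10 members and, of the pathway lists, called genes ranked by p, and some genes are not reported here. WT HFD subcutaneous fat has 7 libraries here where the series text states 8. Summed marker values are sums of CPM over fixed lists.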

Additional observations from a re-analysis of the deposited data

Results flagged for a closer look

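Of the 119 groups and members with 4 to 10 libraries tested, 13 had a library far from the others by Dixon's criterion at the 95% level. For normally distributed values chance alone flags about 1 in 20. That rate does not hold for groups mostly at 0 counts, such as Gdf3 in KO chow subcutaneous fat (6 of 7 libraries at 0). The 13 are therefore not set against it. Gdf11 had 4 of them. Its level was 0.266 CPM in library 3 of WT HFD subcutaneous fat, under a next lowest of 1.27 CPM. In epididymal fat it was high in GFP library 5 (2.12 CPM), WT chow library 5 (1.68 CPM) and KO HFD library 1 (1.98 CPM), with next highest values of 0.984, 0.809 and 0.917 CPM. Mstn had 4 as well, all epididymal. They were GFP library 8 at 11.0 CPM, with 4396 CPM of muscle markers, mInhbe library 3 at 0.287 CPM, KO chow library 4 at 0.176 CPM, and KO HFD library 4, which was low at 0.154 CPM. Gdf3 was set apart at 0.133 CPM in KO chow subcutaneous library 5 and 0.121 CPM in GFP epididymal library 6, each at 2 counts and so under the floor of 3. Tgfb1 was low in WT chow subcutaneous library 1, at 23.2 CPM against a next lowest of 48.0 CPM, and that library held 7.45 CPM of lymph node markers where the other 7 held 753 to 1345 CPM. Tgfb1 was also low in KO chow epididymal library 5, at 28.6 CPM. Inhbb was low in WT chow subcutaneous library 8, at 31.1 CPM, and that library held the most muscle markers of its group, 1042 CPM. None of these associations was tested.

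An effect differed between depots, or between diets, by a test of the difference for the following members, as log2 differences of log2 fold changes. Between depots (epididymal less subcutaneous) the effect of the mInhbe AAV differed for Inhbb by 0.91. The effect of HFD in WT mice differed by -2.32 for Fstl3, 5.63 for Gdf3, 2.69 for Mstn, 1.46 for Tgfb1 and -0.47 for Tgfb3, and the effect of the KO on HFD by 1.30 for Fstl3. Between diets (HFD less chow) the effect of the KO differed by -1.14 for Fstl3 in subcutaneous and by -1.14 for Tgfb1 in epididymal fat.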

How the results depend on the processing

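Of the 56 called results of members, 55 kept their direction and their side of the threshold with DESeq2 and 55 with RLE size factors, 54 without the filter on low counts, 43 of 46 in fits of only the groups compared, and 33 with tissue scores as covariates. The 3 that changed sign there were the depot differences of Inhba in GFP AAV (-0.60) and KO HFD mice (-0.12) and of Tgfb1 in WT chow mice (0.16). In both-depot fits the scores separate the depots, so by construction little of the depot difference is left to test. Within a depot, 21 of 23 calls were kept with them. Leaving out libraries kept 35 of 42 results without the 9 set apart for tissue content, and, as alternatives chosen after seeing the data, 49 of 55 without libraries over 500 CPM of muscle markers, 51 of 55 without the 13 in which a member stood apart and 36 of 39 without WT HFD epididymal libraries 4 and 5, which held 1088 and 4243 CPM of liver markers.

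Counts of members called moved as follows. With tissue scores they became 0 for the mInhbe AAV in subcutaneous fat, 0 for its difference between depots, 1, 2 and 3 for the depots in GFP, WT chow and KO HFD mice, and 3 for the depot difference of HFD in WT mice. With a replicate block they became 0 for the AAV in epididymal fat (Fstl3, adjusted p = 0.166), 0 for the AAV difference between depots (Inhbb, 0.0552) and 0 for the KO difference between diets in subcutaneous fat (Fstl3, 0.0703). The latter was also 0 without the libraries set apart and 0 without those rich in muscle. Without the libraries set apart HFD in WT subcutaneous fat gave 1. In fits of only the groups compared HFD in KO epididymal fat gave 3 and the depots in KO HFD mice 3. The depot difference of HFD in WT mice was 3 without muscle-rich libraries and 3 without WT HFD epididymal libraries 4 and 5. Without the libraries in which a member stood apart the AAV in epididymal fat gave 2 and the depot difference of the KO on HFD 2.

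Calls over all genes, the background of each count, moved by more than 1.5 times in these cases. For the AAV they went from 3801 to 352 in subcutaneous fat and from 9950 to 716 between the depots of GFP mice with tissue scores, and from 6679 to 1859 between depots in WT chow mice. In epididymal fat the AAV gave 173, 76 with the block, 334 with DESeq2 and 340 with both depots in the fit, and its difference between depots 2081, 4 with the block and 877 without the libraries set apart. The KO on chow gave 36 in subcutaneous fat, 8 without muscle-rich libraries, 23 with the block, 23 with only those groups, 63 with tissue scores, 95 without libraries in which a member stood apart, 133 with DESeq2 and 229 without the libraries set apart. In epididymal fat it gave 99, 205 with DESeq2 and 162 with only those groups. The KO difference between diets in subcutaneous fat gave 304, 94 without muscle-rich libraries, 160 without those set apart and 567 with DESeq2. With only the groups compared, HFD gave 3867 against 6276 in WT and 6463 against 2948 in KO subcutaneous fat, and the depots in WT HFD mice 3646 against 6312. Without muscle-rich libraries the depot difference of HFD was 3101 against 5157 and that of the KO on HFD 1292 against 2264. The cause of these changes was not tested, beyond what each setting leaves out.

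The titles number libraries alike in all groups, and whether a number stands for the same mouse in both depots is not settled here. In none of the 16 pairs of groups were all correlations of deviations over 0.1, and their medians ran from -0.0996 to 0.196. At most 4 libraries of a group correlated best with their own number, which was 4 of 8 between the depots of KO HFD mice. Weak correlations between depots cannot exclude pairing, and the reported depot tests treated the libraries as independent. With the replicate block 50 of 56 called results were kept. Depth limits Gdf3 and Mstn most, since 3 counts are worth 0.149 to 0.231 CPM.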

Other observations

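Other ligands of the family also moved on HFD in WT epididymal fat. Of 12 tested, 2 rose and 7 fell, with a median of -0.79, where 54.1% of all genes were called. Gdf15, a stress hormone made by macrophages and other cells, rose (2.63 ± 0.35, log2 fold change ± SE), as did Gdf6 (1.01 ± 0.32). Among the bone morphogenetic proteins Bmp4 (-1.24 ± 0.20), Bmp6 (-0.92 ± 0.16), Bmp2 (-0.76 ± 0.15), Bmp7 (-1.85 ± 0.41) and Bmp5 (-0.69 ± 0.28) fell, with Gdf5 (-1.13 ± 0.35) and Gdf10 (-0.82 ± 0.15). In KO against WT mice on HFD in the same depot 4 of the 12 rose and 1 fell, near the 37.2% of all genes called there. Those that rose were Gdf5 (1.95 ± 0.36), Bmp6 (0.64 ± 0.16), Bmp4 (0.56 ± 0.19) and Gdf10 (0.43 ± 0.15), and the one that fell was Gdf15 (-1.39 ± 0.33). The WT HFD libraries are shared by both comparisons. Gdf5 also fell with the mInhbe AAV in subcutaneous fat (-1.55 ± 0.21).

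Among 13 tested secreted antagonists other than Fst and Fstl3, 2 rose and 6 fell on HFD in WT epididymal fat, which is near the background of 54.1%. Fstl1 (1.07 ± 0.14) and biglycan, Bgn (1.16 ± 0.12), rose, and those that fell included the BMP antagonists Grem1 (-2.19 ± 0.70), Chrdl1 (-1.98 ± 0.20), Chrd (-1.12 ± 0.13) and Twsg1 (-0.65 ± 0.14), and Wfikkn2 (-1.25 ± 0.33), which binds myostatin and GDF11. Bgn rose with the mInhbe AAV in subcutaneous (0.64 ± 0.10) and epididymal fat (0.70 ± 0.11) and fell in KO HFD mice in both (-0.68 ± 0.10 and -0.78 ± 0.12). Fstl1 fell there too (-0.96 ± 0.21 and -0.97 ± 0.14). Among the receptors Acvr1b, the type I receptor of activin A, rose with the AAV in both depots (0.36 ± 0.10 and 0.43 ± 0.10) and fell in KO HFD mice in both (-0.97 ± 0.19 and -0.90 ± 0.09). The macrophage sums given for Gdf3 and Tgfb1 moved with the epididymal HFD comparisons, and their part was not tested. Genes past the first 4 by p of a list were named after their values were seen.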
